A study of Mus musculus with 15 samples.

Results

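Respiratory chain subunits build the protein complexes of the inner mitochondrial membrane that pass electrons from NADH and succinate to oxygen and use the proton gradient to make ATP. Members were the protein-coding genes whose mouse symbol starts with Ndufa, Ndufb, Ndufc, Ndufs, Ndufv, Uqcr, Cox4 to Cox8 or Atp5, or is Sdha, Sdhb, Sdhc, Sdhd or a mitochondrial mt-Nd, mt-Co, mt-Cytb or mt-Atp gene. The rule found 107 genes of 54838 in the files, of which 94 are encoded in the nucleus and 13 in mitochondrial DNA. By role, 29 nuclear members are accessory subunits of complex I (NADH dehydrogenase), 7 are its core subunits and 8 are its assembly factors (Ndufaf genes, which carry the same prefix but are not part of the finished complex). A further 4 belong to complex II (succinate dehydrogenase), 8 to complex III (cytochrome bc1), 20 to complex IV (cytochrome c oxidase, counted with Ndufa4 and Ndufa4l2) and 18 to complex V (ATP synthase). Another 12 processed pseudogenes and 1 long noncoding RNA with matching symbols were left out.

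RNA was sequenced from 15 libraries in 5 groups of 3. The 4T1 line, a BALB/c mouse mammary carcinoma line, was profiled as cells taken out of mouse lungs (BALB/c) 7 days after tail-vein injection (4T1 in vivo) and as cells in culture medium with serum (4T1 in vitro). Lung epithelial cells were sorted by flow cytometry 7 days after injection of 800000 labelling 4T1 cells, with 5 lungs pooled for each replicate, from lungs for which the treatment is given as shSox9 (niche labelled shSox9) or control (niche and distal). Niche cells lay near the labelling 4T1 cells and distal cells away from them; the labels do not say which cells carried the shSox9 construct, and all epithelial groups came from lungs with 4T1 cells. Library totals ran from 15907316 to 30421705 expected counts. Sox9 stood at 91.1, 62.3 and 36.8 CPM (counts scaled to a common library size) in the libraries labelled shSox9, against 64.9, 58.8 and 33.0 CPM in niche libraries, so Sox9 RNA gives no check of that label and these are called the libraries labelled shSox9 throughout. Summed markers of alveolar type 2 (AT2) cells, the surfactant-making cells, were 37205 to 61573 CPM in libraries labelled shSox9, 11638 to 15738 CPM in niche and 208473 to 255921 CPM in distal libraries. Whether the 4T1 libraries came from separate cultures or mice is not stated, and p-values within 4T1 cells cover only differences among libraries, which may be technical.

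Complexes I, III, IV and V each combine mitochondrially encoded subunits with many more nuclear ones, while complex II is wholly nuclear. The mitochondrial genes are transcribed together as long precursors from the circular genome, by factors that are themselves nuclear products. Nuclear subunits are transcribed one by one, and many of their promoters carry sites for NRF1, the ETS family (which includes GABP) and YY1. Several complex IV subunits and the ATP synthase c-ring have paralogous isoforms, some of them typical of heart and skeletal muscle.

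Of the 13 mitochondrially encoded members, 7 have near-identical copies in a stretch of mitochondrial DNA inserted in the nuclear genome, which affects how reads were assigned. All 7 copies lie in 1 block of 4663 bases on chromosome 1 (GRCm38 chr1:24611535-24616197, minus strand), and 5 of them have no difference from the mitochondrial gene over the aligned bases. The copy of mt-Nd3, Gm28438, differs by T3C over 345 aligned bases, with positions counted from 1 at the gene's 5′ end. The first 60 bases of both genes are shown with the differing base in capitals, mt-Nd3 at chrM:9459-9518 (plus strand) and Gm28438 at chr1:24613060-24613119 (minus strand).
mt-Nd3: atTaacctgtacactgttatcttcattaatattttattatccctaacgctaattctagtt
Gm28438: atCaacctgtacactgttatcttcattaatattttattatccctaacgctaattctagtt
Over all libraries these copies took 32.9% of the counts given to the 13 mitochondrially encoded members and the copies together. Gm10925, identical to mt-Atp6 over 678 bases, received 3.81 times the count of mt-Atp6, Gm28437 received 2.86 times that of mt-Co3, and Gm28438 received 12.4 times that of mt-Nd3. How much of these counts came from each locus cannot be told apart, so values of the mitochondrially encoded members are given both as deposited and with the copies' counts added. A second kind of shared sequence lies within the mitochondrial genome, where mt-Atp8 and mt-Atp6 overlap by 43 bases (chrM:7927-7969, plus strand, in capitals with 20 bases on each side).
mt-Atp8 and mt-Atp6: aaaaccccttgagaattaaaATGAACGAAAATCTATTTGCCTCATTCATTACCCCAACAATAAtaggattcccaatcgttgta

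RefSeq promoter windows (GRCm38.p6, 250 bases before to 50 after the start site) were matched for 74 of the 94 nuclear members. The NRF1 motif, searched like the others on both strands, was present in 19 of the 74 (25.7%), against 5.19% of all 27025 promoter windows. The ETS family motif CCGGAAG was present in 18 (24.3%, against 9.93%) and the YY1 motif AAGATGGCG in 8 (10.8%, against 1.64%), and any of the 3 motifs in 38 (51.4%, against 15.1%). The windows of 4 members described below are shown with these motifs in capitals. Cox6a1 (chr5:115348909-115349208, minus strand) holds 2 NRF1 motifs and 1 ETS motif, Ndufaf4 (chr4:24897833-24898132, plus strand) 1 NRF1 motif and Sdhb (chr4:140961021-140961320, plus strand) 1 ETS motif just after the start site. Cox8b (chr7:140900397-140900696, minus strand) holds none of these letters in this window.
Cox6a1: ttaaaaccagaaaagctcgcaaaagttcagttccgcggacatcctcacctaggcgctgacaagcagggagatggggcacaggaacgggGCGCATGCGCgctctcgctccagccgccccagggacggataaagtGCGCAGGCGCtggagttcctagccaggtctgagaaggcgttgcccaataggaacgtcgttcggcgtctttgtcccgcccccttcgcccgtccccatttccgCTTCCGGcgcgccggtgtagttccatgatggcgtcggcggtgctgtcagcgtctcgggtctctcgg
Ndufaf4: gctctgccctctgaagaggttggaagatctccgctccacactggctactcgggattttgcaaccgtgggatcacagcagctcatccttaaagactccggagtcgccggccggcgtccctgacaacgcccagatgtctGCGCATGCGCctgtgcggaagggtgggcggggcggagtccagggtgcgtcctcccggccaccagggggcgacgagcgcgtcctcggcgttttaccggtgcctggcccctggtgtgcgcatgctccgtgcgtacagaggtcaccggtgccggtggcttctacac
Sdhb: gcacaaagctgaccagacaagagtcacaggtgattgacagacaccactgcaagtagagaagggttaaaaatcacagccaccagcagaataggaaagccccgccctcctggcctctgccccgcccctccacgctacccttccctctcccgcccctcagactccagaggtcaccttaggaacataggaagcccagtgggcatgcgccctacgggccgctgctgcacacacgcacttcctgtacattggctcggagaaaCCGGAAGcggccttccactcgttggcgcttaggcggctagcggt
Cox8b: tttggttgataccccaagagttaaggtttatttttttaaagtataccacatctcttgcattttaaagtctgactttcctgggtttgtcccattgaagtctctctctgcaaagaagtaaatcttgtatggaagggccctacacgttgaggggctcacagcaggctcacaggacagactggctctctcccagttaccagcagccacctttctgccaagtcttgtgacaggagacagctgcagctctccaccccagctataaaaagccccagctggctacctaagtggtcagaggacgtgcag

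Per transcript length (TPM, length-scaled abundance), the mean over all libraries was highest for Ndufb9 among complex I accessory subunits (907 TPM), for Ndufv2 among its core subunits (237 TPM), for Sdhb in complex II (421 TPM), for Uqcrq in complex III (721 TPM), for Cox4i1 in complex IV (844 TPM) and for Atp5b in complex V (746 TPM). As deposited, mt-Atp8, a gene of 204 bases, had the highest mean of the mitochondrially encoded members (7178 TPM). The lowest was mt-Nd3 (6.96 TPM), whose copy received 12.4 times its count. In CPM, which are not scaled by length, mt-Atp8 averaged 593 CPM and mt-Cytb 3994 CPM in 4T1 in vivo, and 449 and 3718 CPM in distal libraries. The complex I assembly factors were far lower, between 15.1 TPM for Ndufaf5 and 122 TPM for Ndufaf8. Cox7b2 and Cox8c were at 0 in every library. The median complex III subunit stood at 620 ± 33.9 TPM in 4T1 in vivo, 571 ± 74.7 TPM in 4T1 in vitro, 366 ± 8.63 TPM in libraries labelled shSox9, 400.1 ± 30.8 TPM in niche and 206 ± 9.13 TPM in distal libraries (SD, n = 3 each).

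The 13 mitochondrially encoded members together took 2.20% ± 0.022 of TPM in 4T1 in vivo and 1.51% ± 0.24 in 4T1 in vitro, 3.02% ± 0.78 in libraries labelled shSox9, 1.98% ± 0.20 in niche and 1.47% ± 0.23 in distal libraries (SD, n = 3 each). The 94 nuclear members took 3.45% ± 0.13 in 4T1 in vivo and 3.30% ± 0.33 in 4T1 in vitro, 2.18% ± 0.051 in libraries labelled shSox9, 2.45% ± 0.082 in niche and 1.37% ± 0.066 in distal libraries. With 3 libraries against 3, an exact permutation test cannot go below p = 0.1, and that smallest value was reached for the mitochondrial share in 4T1 in vivo against in vitro and in niche against distal epithelium, where it was higher in niche. It was also reached for the nuclear share in niche against distal, in libraries labelled shSox9 against niche and in 4T1 in vitro against distal. With the TPM of copies added, the mitochondrial share was 3.40% in 4T1 in vivo and 2.31% in 4T1 in vitro, 4.77% in libraries labelled shSox9, 3.22% in niche and 2.24% in distal libraries. The epithelial shares depend on the pool of transcripts they are read in: Sftpc, which encodes surfactant protein C, alone took 2.89% to 5.21% of the counts in libraries labelled shSox9, 0.805% to 1.04% in niche and 16.7% to 20.4% in distal libraries. Relative to the TPM of nuclear protein-coding genes without 4 surfactant genes, the nuclear members stood at 2.86% in niche and 2.66% in distal libraries (exact permutation p = 0.2, two-sided, n = 3 each). The mitochondrial share turned round in that pool: it was 2.32% in niche and 2.86% in distal libraries, a ratio of 0.811 (exact permutation p = 0.2), against a ratio of 1.35 in all TPM.

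**Figure D1:**
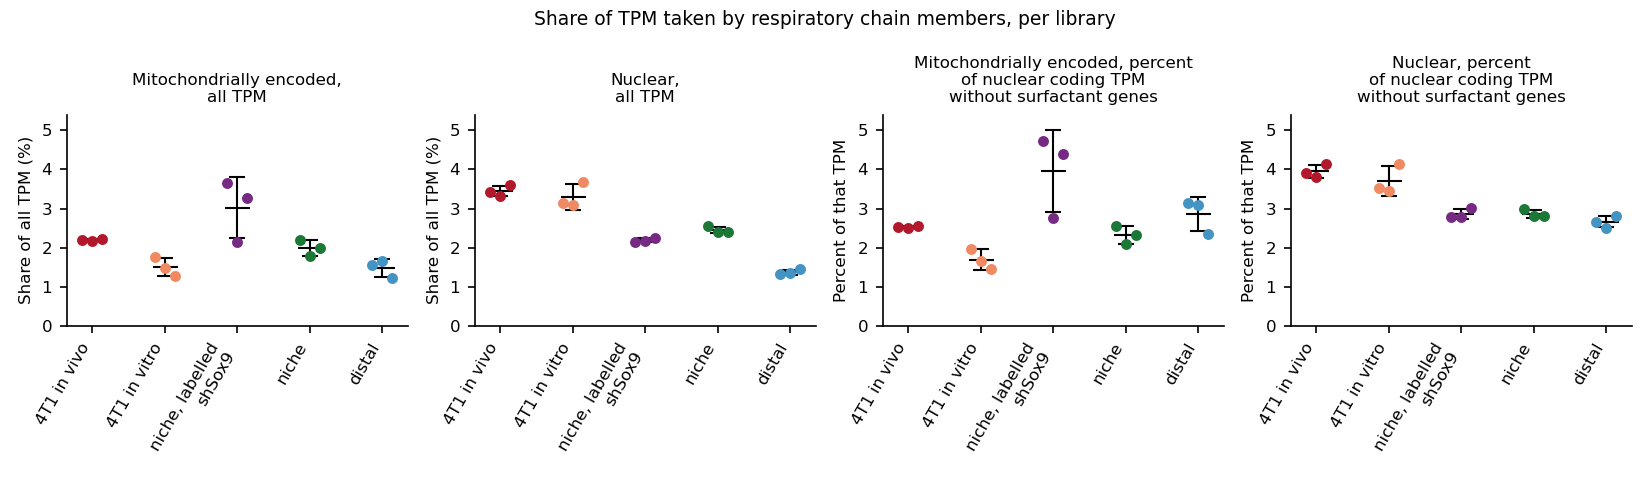
Share of TPM taken by the members in each library (points), with the mean and SD of each group of 3 libraries (bar). The left pair of panels is in percent of all TPM and the right pair in percent of the TPM of nuclear protein-coding genes without Sftpa1, Sftpb, Sftpc and Sftpd; the gap between niche and distal libraries in the nuclear members narrows to 2.86% against 2.66% on the right.

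In 4T1 cells isolated from the lung, transcripts of the mitochondrial genome were higher than in cultured 4T1 cells, while nuclear members moved in both directions. Of the 13 mitochondrially encoded members 8 rose and 1 fell (adjusted p below 0.05, edgeR's quasi-likelihood test with Benjamini-Hochberg adjustment over all genes), where 27% of all genes tested rose and 24% fell. Their median log2 fold change was 0.64, against 0.01 over all genes. With the copies' counts added, 11 rose and 2 fell, with a median of 0.57. The 2 that fell were mt-Nd1, described below, and mt-Nd3, with a log2 fold change of -0.43. With its copy mt-Nd3 had 14.6, 12.9 and 20.3 CPM in 4T1 in vivo and 22.3, 20.4 and 22.0 CPM in 4T1 in vitro.

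mt-Co1, the catalytic subunit of cytochrome c oxidase, stood at 1216, 1229 and 1402 CPM in 4T1 in vivo and at 683, 506 and 522 CPM in 4T1 in vitro, copies added. Every in vivo library lay above every in vitro library, a log2 fold change of 1.17 (SE 0.13, edgeR adjusted p = 8.2e-05). mt-Cytb, the haem-bearing core of complex III, which has no such copy, had 4003, 4158 and 3819 CPM in 4T1 in vivo, against 2815, 2630 and 2300 CPM in 4T1 in vitro. Its groups did not overlap either, and it rose by 0.64 on the log2 scale (SE 0.097, adjusted p = 0.00059). Among the complex I subunits of the membrane arm, mt-Nd4 (log2 fold change 0.85), mt-Nd5 (0.70) and mt-Nd2 (0.46) rose together. mt-Nd6, the only member read from the other strand of the genome, had 39.6, 43.9 and 65.3 CPM in 4T1 in vivo and 37.5, 27.2 and 29.9 CPM in 4T1 in vitro, and rose by 0.66 on the log2 scale. Since it is not stated that the counting used strand, reads from the strand opposite to mt-Nd6 cannot be told apart from its own.

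mt-Nd1, another complex I membrane subunit, went the other way. It had 580, 509 and 639 CPM in 4T1 in vivo, against 830, 699 and 636 CPM in 4T1 in vitro, and fell by 0.32 (log2, SE 0.12; adjusted p = 0.047 by edgeR). The groups overlapped, and mt-Nd1 was not called without 4T1 in vivo replicate 1 or 2 or 4T1 in vitro replicate 1 or 2. mt-Co3, mt-Nd4l and mt-Co2 passed the test only with copies added, at 0.57, 0.74 and 0.43. As deposited, mt-Co3 had 254, 270 and 696 CPM in 4T1 in vivo and 240, 60.4 and 238 CPM in 4T1 in vitro, and with the copy 1281, 1243 and 1373 CPM in 4T1 in vivo and 897, 825 and 916 CPM in 4T1 in vitro. The ribosomal RNA of the small mitochondrial subunit, mt-Rnr1, rose as well, with 807 ± 118 CPM in 4T1 in vivo and 286 ± 103 CPM in 4T1 in vitro (SD, n = 3 each).

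**Figure D2:**
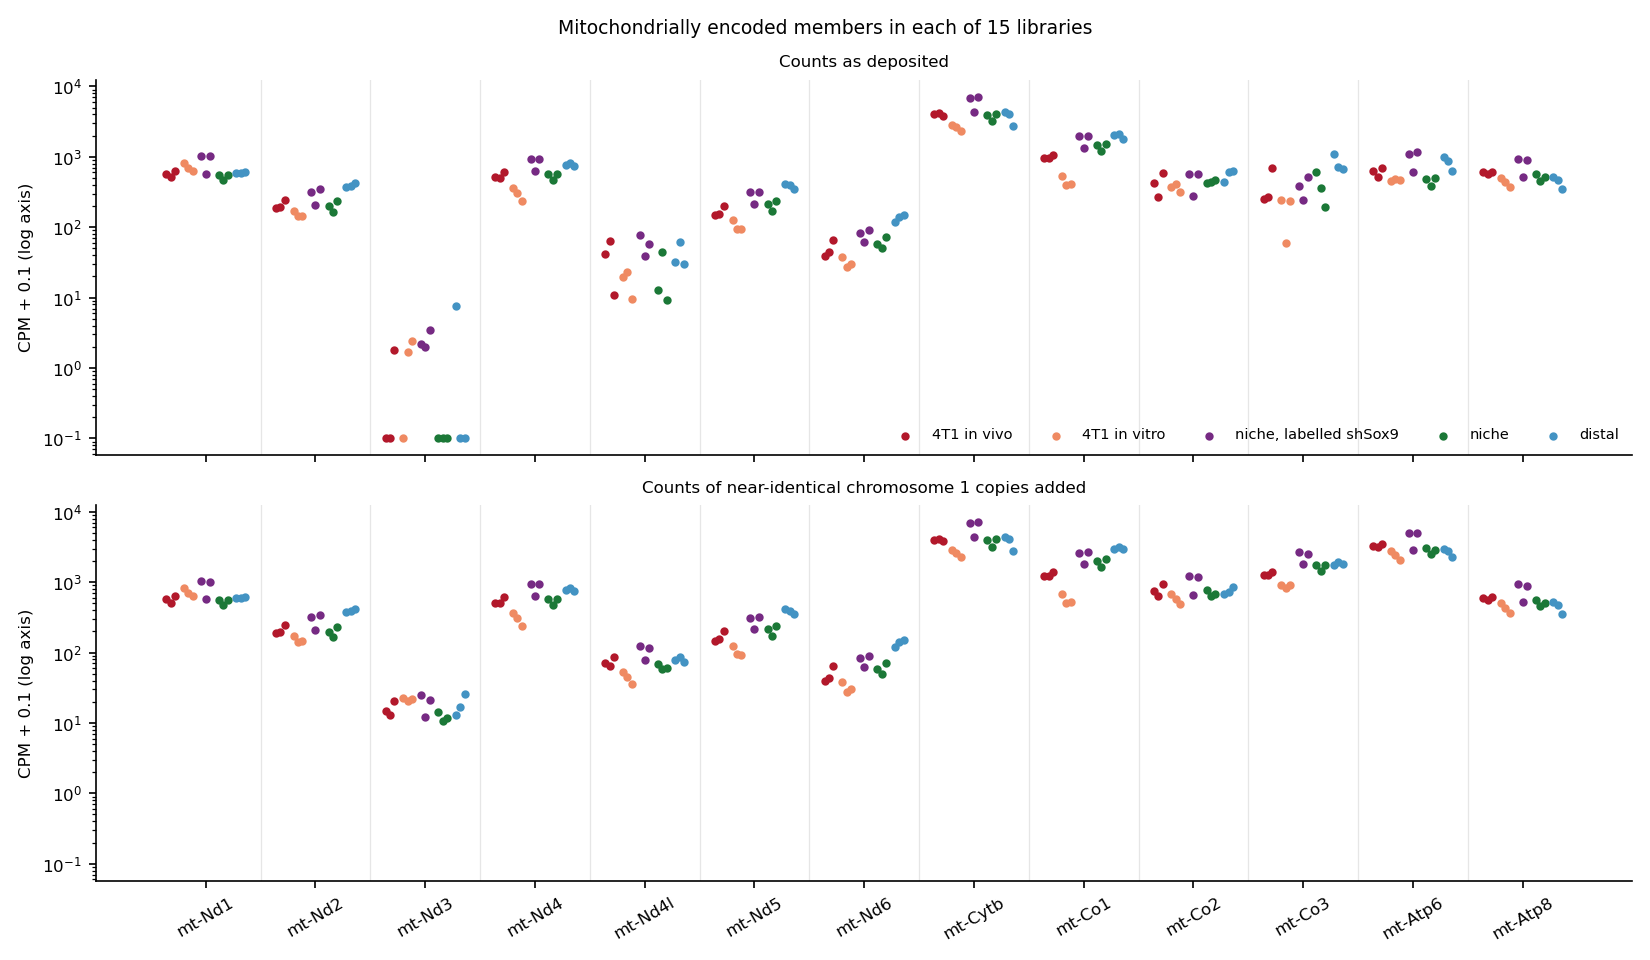
CPM + 0.1 of the 13 mitochondrially encoded members in each of the 15 libraries, on a log axis, with the counts as deposited (top) and with the counts of the chromosome 1 copies added (bottom). With copies added, the mt-Co1 points of 4T1 in vivo (1216 to 1402 CPM) lie above those of 4T1 in vitro (506 to 683 CPM), and the scatter of mt-Nd3, mt-Nd4l and mt-Co3 between libraries of a group narrows.

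Of the 85 nuclear members tested in 4T1 cells, 9 rose and 11 fell, 10.6% and 12.9%, with a median log2 fold change of -0.03. Both shares lay below the 27% and 24% of all genes. The members that rose were mostly small accessory subunits of complex I, of which 6 of 29 rose and 1 fell, and of complex IV, of which 2 of 12 tested rose. The members that fell were assembly factors (3 of 8), subunits of complex III (3 of 8) and 2 of 17 tested members of complex V, both F1 subunits. The others were 1 core and 1 accessory subunit of complex I and 1 subunit of complex II.

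Ndufb11, an accessory subunit of the complex I membrane arm, had 122, 117 and 133 CPM in 4T1 in vivo and 80.3, 77.3 and 84.1 CPM in 4T1 in vitro. The groups were apart, and its log2 fold change of 0.63 (SE 0.087, edgeR adjusted p = 0.00034) was the largest rise of a nuclear member. Ndufs4 and Ndufa1 (both 0.40), other accessory subunits, rose less, as did Cox6c (0.38) and Cox6a1 (0.31) of complex IV. Sdhc, a membrane anchor of complex II, rose by 0.53 while Sdha, its flavoprotein, fell by 0.30.

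Ndufaf4, a complex I assembly factor, had 42.3, 40.1 and 50.4 CPM in 4T1 in vivo and 69.3, 86.3 and 88.8 CPM in 4T1 in vitro. It fell by 0.87 (log2, SE 0.12; adjusted p = 0.00034 by edgeR), and the groups did not overlap. Ndufaf1 and Ndufaf5, assembly factors as well, fell by 0.61 and 0.36. The core proteins Uqcrc1 and Uqcrc2 and the Rieske iron-sulfur subunit Uqcrfs1 of complex III fell by 0.30, 0.32 and 0.33, and the F1 subunits Atp5a1 and Atp5b by 0.35 and 0.30. Ndufs1, the largest core subunit of complex I, fell by 0.32, and Ndufab1, the mitochondrial acyl carrier protein, by 0.35.

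Transcript length went with the direction. Length here is the transcript length given for each gene in distal replicate 3. The nuclear members that rose had a median length of 699 bases and those that fell one of 1646 bases. Over the 85 nuclear members the Spearman correlation of length with log2 fold change was -0.51, against -0.05 over all genes tested. This is a description across genes of the same libraries, and its cause was not tested. When each library's trend of counts with mean effective length was used as an offset, 10 rose and 26 fell. Of all genes 27.5% rose and 27.5% fell with that offset, which would also take off real changes that go with length. On log2(TPM + 1) with limma, 16 rose and 7 fell, where 27.5% of all genes rose and 16.7% fell. The counts also rested on single libraries. Without 4T1 in vivo replicate 1 they were 4 and 7 and without its replicate 3 they were 5 and 13; without 4T1 in vitro replicates 1, 2 and 3 in turn they were 4 and 15, 2 and 7, and 24 and 10.

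Lists of other nuclear genes of the mitochondrion are set here beside the 27% of all genes that rose and the 24% that fell. Of 78 mitochondrial ribosomal proteins 2 rose and 42 fell, of 19 tested factors of mitochondrial DNA transcription and replication 10 fell, and of 14 genes of the tricarboxylic acid cycle 1 rose and 7 fell. Twnk, the mitochondrial DNA helicase, had 41.1 ± 6.68 CPM in 4T1 in vivo and 77.3 ± 7.21 CPM in 4T1 in vitro (SD, n = 3 each), a log2 fold change of -0.90 (SE 0.13, edgeR adjusted p = 0.00048). Tefm, the mitochondrial transcription elongation factor, and Top1mt, the mitochondrial topoisomerase, fell by 0.74 and 0.68, and the citrate synthase gene Cs fell by 0.66. Of the regulators of mitochondrial biogenesis, 1 of 9 tested rose and 4 fell, among them the coactivator Pprc1 (log2 fold change -0.90) and the transcription factors Nrf1 (-0.36) and Gabpa (-0.39). Assembly factors outside the symbol rule divided into 4 that rose and 13 that fell of 42, with Cox20 (1.02), a complex IV assembly factor, highest and Higd1a (-1.32) lowest.

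In epithelium near the 4T1 cells 36 nuclear members were higher than in distal epithelium, and 8 of the 13 mitochondrially encoded ones were lower in counts as deposited, or 5 with copies added. Of 91 nuclear members tested 36 rose and 11 fell in niche libraries, where 28.5% of all genes rose and 25.8% fell, and the median log2 fold change was 0.21, against 0.02 over all genes. By complex, the members that rose were 10 of 29 accessory subunits of complex I, 2 of 7 core subunits and 3 of 8 assembly factors. They were 2 of 4 subunits of complex II, 3 of 8 of complex III, 8 of 18 tested of complex IV and 8 of 17 tested of complex V. The shares ran from 28.6% (core subunits) to 50% (complex II), on few genes each. With 28.5% of all genes called higher, rises in each complex are not particular to the members. The members that fell, 7 without niche replicate 1 or distal replicate 3, were 5 of complex IV, 3 accessory and 1 core subunit and 1 assembly factor of complex I and 1 member of complex V.

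Sdhb, the iron-sulfur subunit of complex II, had 288, 269 and 286 CPM in niche and 178, 179 and 190 CPM in distal libraries. The groups were far apart relative to their spread, with a log2 fold change of 0.70 (SE 0.087, edgeR adjusted p = 5.2e-05). Cox5a, a structural subunit of complex IV, had 165, 154 and 154 CPM in niche and 97.1, 82.2 and 108 CPM in distal libraries, again without overlap (log2 fold change 0.79). Cox7c (0.70), Cox5b (0.64) and Cox4i1 (0.36) of complex IV, Uqcrc1 (0.56), Uqcr10 (0.46) and Uqcrq (0.45) of complex III, and Atp5c1 and Atp5b (both 0.63) of the F1 part of complex V rose as well. Ndufs4 (0.55) and Ndufb8 (0.46), accessory subunits of complex I, and Ndufs3 (0.26), a core subunit of its peripheral arm, moved less. The assembly factors Ndufaf5, Ndufaf2 and Ndufaf4 rose by 0.75, 0.67 and 0.59 on the log2 scale, while Ndufaf3 fell by 0.81.

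The size and number of these rises moved with the scale and when an estimated share of 4T1 RNA was taken off. On log2(TPM + 1) with limma 81 nuclear members rose and 3 fell, 96.4% of the calls against 76.6%, but 52.2% of all genes rose and 13.6% fell. The median of all genes rose to 0.48 on that scale and the members' median exceeded it by 0.30, against 0.18 in counts. A panel of 18 genes that were at 20 CPM or more in 4T1 cells and at 2% or less of their in vivo level in distal libraries had a median of 19.9%, 19.0% and 12% of its in vivo level in niche libraries, against 0.916%, 1.02% and 1.18% in distal ones. With that share of the 4T1 in vivo profile taken off, 22 nuclear members rose and 7 fell, among them 20 of the 36 and 7 of the 11; the share of all genes that rose or fell was then 25.2% and 20.9%. Ndufb9, an accessory subunit of complex I, changed most: it had 223, 202 and 187 CPM in niche and 117, 99.1 and 119 CPM in distal libraries, against 662, 615 and 721 CPM in 4T1 in vivo, and its log2 fold change of 0.94 became -0.0064. Sdhb, Cox5a and Cox5b kept 0.65, 0.78 and 0.63 on the same correction. The stricter panel planned at first, of 1 gene, stood at 10.0%, 0% and 0.345% of its in vivo level in niche libraries. It was at 0% in every library labelled shSox9. Whether other cells in the niche libraries expressed the 18 panel genes was not tested.

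Of the 91 nuclear members 71 (78.0%) had a mean niche level between those of distal epithelium and 4T1 in vivo, 3 lay above both and 17 below both. Of the 13 mitochondrially encoded members 6 lay between, 0 above and 7 below. Over all genes tested 58.2% lay between. Markers of other cell types moved with the comparison too: the summed fibroblast and mural list was 9146 to 10551 CPM in niche and 2095 to 2622 CPM in distal libraries, and the macrophage list 1431 to 2589 CPM in niche and 107 to 157 CPM in distal libraries. Their part in the members' values was not tested, and in bulk RNA fewer cells of a type and less RNA per cell cannot be told apart.

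**Figure D3:**
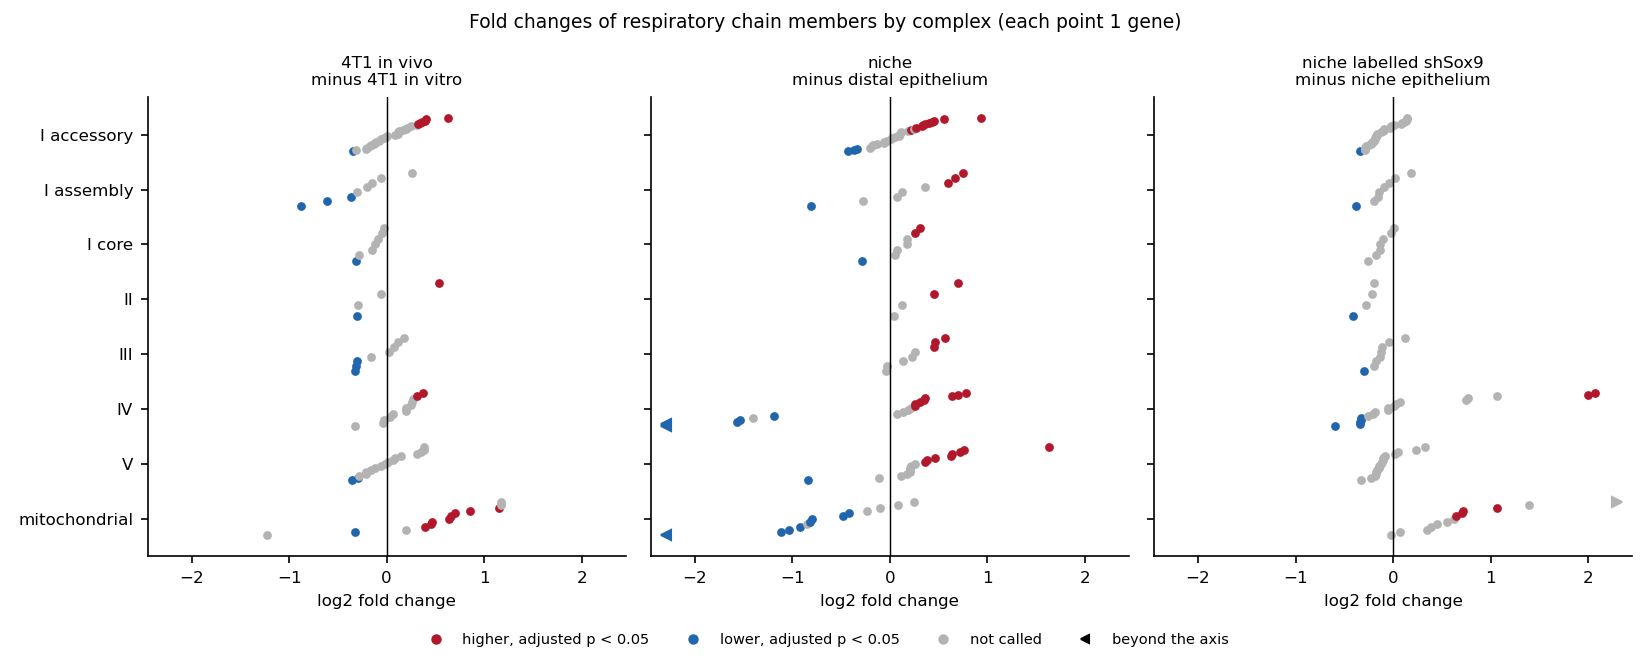
log2 fold change of each tested member (points) by complex in 3 comparisons, with members called higher in red, called lower in blue and not called in grey, and triangles for values beyond the axis. Niche minus distal, where 28.5% of all genes rose, shows rises in every nuclear complex and falls in complex IV isoforms. The mitochondrially encoded members lie mostly right of 0 in the outer panels and left of 0 in the middle one.

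The 5 complex IV members that fell were all alternative isoforms of a subunit, 3 of them known from heart and skeletal muscle. Cox6a2, the muscle isoform of subunit 6a, had 1.28, 1.22 and 1.49 CPM in niche and 42.1, 30.4 and 47.2 CPM in distal libraries, a log2 fold change of -4.84 (SE 0.26, edgeR adjusted p = 1.3e-07). Its count summed over 3 libraries was 80 in niche and 1656 in distal epithelium. Cox6a1, the common isoform of the same subunit, had 182, 172 and 164 CPM in niche and 148, 137 and 171 CPM in distal libraries, with overlap between the groups (log2 fold change 0.25). Cox8b, the muscle isoform of subunit 8, was at 0.176, 0.09 and 0.372 CPM in niche and 2.34, 2.21 and 1.84 CPM in distal libraries, and passed the filter on low counts without the niche libraries. Cox7a1, the muscle isoform of subunit 7a, had 0.616, 1.31 and 0.867 CPM in niche and 3.55, 2.58 and 2.61 CPM in distal libraries. The log2 fold changes of Cox8b and Cox7a1 were -3.29 and -1.57.

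4T1 cells had few reads of Cox6a2 and Cox8b. Cox6a2 summed to 14 counts over the 3 libraries of 4T1 in vivo, 2 of 4T1 in vitro and 330 of the niche labelled shSox9, and Cox8b to 0 counts in 4T1 in vivo, 1 in 4T1 in vitro and 49 in the niche labelled shSox9. Cox7a1 differed from both, with 42 counts in 4T1 in vivo and 18 in 4T1 in vitro, beside 58 in libraries labelled shSox9, 57 in niche and 122 in distal libraries. Cox6b2 (-1.18), known as a testis isoform, and Ndufa4l2 (-1.53), a hypoxia-induced relative of Ndufa4, also fell in niche libraries but at low levels, with 63 and 120 counts over the 3 niche libraries and 100 and 254 over the 3 distal ones. The myosin heavy chain genes of heart muscle had the same order of epithelial groups as Cox6a2, highest in distal and lowest in niche libraries. That order was not particular to muscle genes. Summed AT2 markers had it too, with 208473 to 255921 CPM in distal libraries, 37205 to 61573 CPM in libraries labelled shSox9 and 11638 to 15738 CPM in niche libraries. CPM of heart muscle genes are without the library scaling factors used for members, so their levels are not on the same scale. A list of 8 heart muscle genes, chosen after these values were seen, summed to 23.3 to 39.6 CPM in libraries labelled shSox9, 9.43 to 11.2 CPM in niche and 217 to 281 CPM in distal libraries, most of it from the myosin heavy chain genes Myh7 (221, 180 and 183 CPM in distal libraries) and Myh6 (45.2, 29.8 and 37.1 CPM). Mb, Nppa and Ckm, genes of myoglobin, atrial natriuretic peptide and muscle creatine kinase, averaged below 1 CPM in distal libraries. Tnni3, cardiac troponin I, had 1.32, 1.44 and 0.657 CPM in libraries labelled shSox9, 1.62, 1.67 and 3.31 CPM in niche and 4.05, 2.05 and 2.89 CPM in distal libraries, so niche and distal values overlapped. Myl7 and Actc1, other genes of the list, overlapped between libraries labelled shSox9 and niche libraries. Whether the muscle isoforms and the myosin transcripts came from the same cells was not tested.

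**Figure D4:**
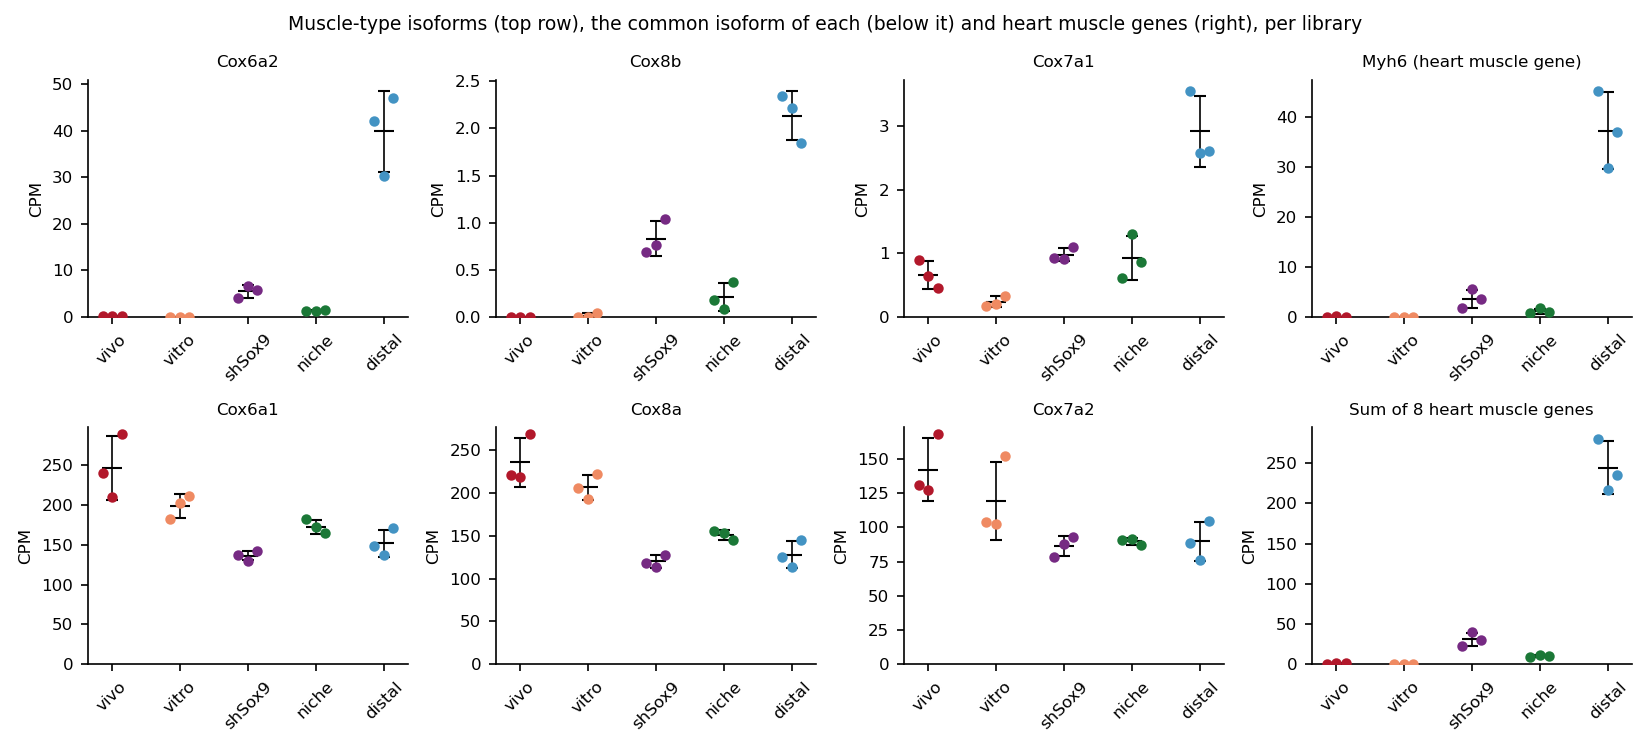
CPM per library (points, with mean and SD of 3 libraries) of 3 muscle-type isoforms of complex IV subunits (top row), the common isoform of each (below it) and heart muscle genes (right), in 4T1 in vivo, 4T1 in vitro, niche labelled shSox9, niche and distal libraries. Heart muscle genes are drawn without the library scaling factors used for members. Cox6a2 is at 30.4 to 47.2 CPM in distal libraries and at 1.22 to 1.49 CPM in niche libraries. Myh6 has the same order of epithelial groups, as do the summed AT2 markers, which are not drawn. Cox6a1 is at 137 to 182 CPM in all 3 epithelial groups except 130 CPM in 1 library labelled shSox9.

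In complex V, Atp5g2, 1 of 3 genes for the c-ring protein, had a log2 fold change of 1.63 at 4.86, 3.45 and 5.45 CPM in niche and 1.53, 1.39 and 1.69 CPM in distal libraries. Its near-identical copy Gm10175 received 8.80 times its count, and with copies added Atp5g2 had 54.6, 49.7 and 48.6 CPM in niche and 34.2, 33.4 and 46.5 CPM in distal libraries, a log2 fold change of 0.49. Atp5g1, another c-ring gene, rose by 0.76 with or without its copy. Atp5s, a coupling factor of the synthase, fell by 0.84. Complex I members that fell in niche libraries were the accessory subunits Ndufc2 (-0.43), Ndufb11 (-0.36) and Ndufb3 (-0.34) and the core subunit Ndufs7 (-0.28). On log2(TPM + 1) these 4 had values of 0.16, 0.23, 0.25 and 0.29, all still below the all-gene median of 0.48 on that scale.

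Of the mitochondrially encoded members 8 of 13 fell in niche libraries, with a median of -0.80, and 5 of 13 with copies added, with a median of -0.29. None was called higher in counts (0 at an unadjusted p under 0.05 and 0 by DESeq2). mt-Nd6 had 58.0, 49.8 and 72.0 CPM in niche and 119, 140 and 151 CPM in distal libraries, and mt-Nd5 had 216, 170 and 235 CPM in niche and 410, 392 and 348 CPM in distal libraries. Both were apart, at a log2 fold change of -1.12 for mt-Nd6 (adjusted p = 0.00017 by edgeR) and -0.82 for mt-Nd5 (adjusted p = 0.0014), each with an SE of 0.16. mt-Nd2 (-0.92), mt-Nd4 (-0.48) and mt-Co1 (-0.56 with its copy) fell as well, whereas mt-Cytb (0.09), mt-Nd1 (-0.11) and mt-Atp8 (0.25) did not pass the test. The falls of mt-Atp6, mt-Co3 and mt-Nd3 were not called once copies were added: mt-Atp6 then stood at 0.15, mt-Co3 at -0.07 and mt-Nd3, which as deposited had 7.41 CPM in distal replicate 1 and 0 in every other niche and distal library, at -0.51.

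The direction of the mitochondrially encoded members depended on the scale. On log2(TPM + 1) with limma 3 were called higher and 1 lower, and their median of -0.19 stood 0.67 below the all-gene median on that scale, against 0.82 below it in counts. Without niche replicate 2 or distal replicate 1, 4 fell, and without distal replicate 2, 5 fell. With the 4T1 share taken off, 5 fell. mt-Rnr2, the large mitochondrial ribosomal RNA, fell by 0.46.

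Lists of nuclear genes that serve the mitochondrion differed in their counts in niche libraries, where 28.5% of all genes rose and 25.8% fell. Of 78 mitochondrial ribosomal proteins 45 rose and 3 fell, with rises of Mrpl13 (log2 fold change 1.31) and Mrps6 (1.13). Assembly factors outside the symbol rule counted 10 higher and 1 lower of 41, and carriers 9 higher and 1 lower of 21. Of 14 genes of the tricarboxylic acid cycle 7 rose and 3 fell, of 19 factors of mitochondrial DNA transcription and replication 8 rose and 3 fell, and of 11 regulators of mitochondrial biogenesis 3 rose and 2 fell. Cycs, which encodes cytochrome c, the carrier between complexes III and IV, had 116 ± 6.5 CPM in niche and 63.8 ± 3.99 CPM in distal libraries (SD, n = 3 each; log2 fold change 0.93, edgeR adjusted p = 9.2e-06). Slc25a4, an ADP/ATP exchanger, rose by 0.73 and Mdh2, the mitochondrial malate dehydrogenase, by 0.64. The coactivators divided: Pprc1 (1.21) and Ppargc1b (1.13) rose, while Ppargc1a (-1.81) and the nuclear receptor Ppara (-2.41) fell.

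Between the libraries labelled shSox9 and niche libraries fewer members changed. Of 91 nuclear members 2 rose and 9 fell, where 9.68% of all genes rose and 10.8% fell, with a median log2 fold change of -0.14, against 0.02 over all genes. Of the 13 mitochondrially encoded members 4 rose, as deposited and with copies added, with medians of 0.62 and 0.61; 10 as deposited had an unadjusted p under 0.05. Same-lettered libraries of these groups deviated together, but the labels state no pairing and the fit above did not use one. With the replicate as a block 7 mitochondrially encoded members rose, while the nuclear counts stayed at 2 and 9.

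mt-Nd4 had 944, 632 and 937 CPM in libraries labelled shSox9 and 566, 466 and 574 CPM in niche libraries, a log2 fold change of 0.65 (SE 0.15, edgeR adjusted p = 0.013). mt-Nd1 had 1029, 567 and 1014 CPM in libraries labelled shSox9 and 561, 471 and 551 CPM in niche libraries (log2 fold change 0.72), and mt-Cytb rose by 0.70. In all of these, replicate 2 of the libraries labelled shSox9 was the lowest of its group, close to the niche values, as its niche counterpart was the lowest of the niche libraries. Without that shSox9 replicate 8 members were called higher (11 with copies added), and without shSox9 replicate 3 it was 1; without niche replicate 1 or 2 it was 2 (with copies added 2 and 1). mt-Atp6 rose by 1.07 as deposited, but by 0.61 with its copy, where it was not called.

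The nuclear members that fell were 5 of complex IV and 1 each of the complex I accessory subunits, the assembly factors and complexes II and III. Cox5a had 113, 92.9 and 107 CPM in libraries labelled shSox9 and 165, 154 and 154 CPM in niche libraries, and fell by 0.59 (log2, SE 0.11; adjusted p = 0.0041 by edgeR). Sdhb had 204, 205 and 222 CPM in libraries labelled shSox9 and 288, 269 and 286 CPM in niche libraries, and fell by 0.42 (SE 0.086, adjusted p = 0.0065). Both genes had no overlap between the groups. Cox6a1 and Cox7c, each by 0.34, and the Rieske subunit Uqcrfs1, by 0.30, fell less. The 2 nuclear members that rose were Cox6a2 (log2 fold change 2.07) and Cox8b (2.0). Cox6a2 had 4.06, 6.68 and 5.84 CPM in libraries labelled shSox9 and 1.28, 1.22 and 1.49 CPM in niche libraries. Cox8b was at most 1.04 CPM in the libraries of both groups. It passed the filter on low counts without the niche libraries, which held 12 counts of it, so its call rests on the libraries where it is higher. The nuclear falls numbered 2 without shSox9 replicate 2 or niche replicate 1, 5 without shSox9 replicate 1, niche replicate 2 or niche replicate 3, and 14 with the 4T1 share taken off, where the panel stood at 23.1%, 16.2% and 11.8% of its in vivo level in libraries labelled shSox9.

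Lists of other nuclear genes of the mitochondrion are given beside the 9.68% of all genes that rose and the 10.8% that fell. Of 78 mitochondrial ribosomal proteins 13 fell, of 21 carriers 5, of 41 assembly factors 3, of 14 genes of the tricarboxylic acid cycle 2 and of 11 regulators of mitochondrial biogenesis 1, and none of these lists had a gene that rose. Of 19 factors of mitochondrial DNA transcription and replication 2 rose and 2 fell. Cycs had 78.8 ± 4.00 CPM in libraries labelled shSox9 and 116 ± 6.5 CPM in niche libraries (SD, n = 3 each), a log2 fold change of -0.55. Slc25a5, an ADP/ATP exchanger, fell by 0.59, Coa5, a complex IV assembly factor, by 0.78, and Ppargc1b by 1.06. The macrophage list summed to 88 to 448 CPM in libraries labelled shSox9 and 1431 to 2589 CPM in niche libraries, and its part in these values was not tested.

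Cultured 4T1 cells and distal epithelium were compared last. Of 91 nuclear members 61 were higher and 16 lower in 4T1 in vitro, where 30.5% of all genes were higher and 51% lower. Their median log2 fold change was 0.51, which is 1.08 above the all-gene median of -0.56, and 78 of the 91 lay above that median. Ndufb9 had 555, 565 and 716 CPM in 4T1 in vitro and 117, 99.1 and 119 CPM in distal libraries (log2 fold change 2.45), and Uqcrc1 rose by 1.62 and Atp5b by 1.65. The assembly factors Ndufaf2 (2.12) and Ndufaf4 (2.10) were among the largest differences, while Ndufaf3 was lower by 1.11 on the log2 scale. Of the mitochondrially encoded members 8 of 13 (61.5%) were lower, as deposited and with copies added, beside the 51% of all genes. Their median was -1.27 as deposited and -0.84 with copies added, against -0.56 over all genes. With copies added, 6 of the 13 lay above the all-gene median. mt-Co1 was at 533, 402 and 416 CPM in 4T1 in vitro and 2017, 2097 and 1787 CPM in distal libraries as deposited (log2 fold change -2.13). With its copy it was at 683, 506 and 522 CPM in 4T1 in vitro and 2991, 3111 and 2918 CPM in distal libraries. These groups differ in cell type as well as in culture, and the parts of either cannot be told apart.

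The comparison within 4T1 cells and the comparison of niche with distal epithelium share no library, so their values can be set side by side. Over the 85 nuclear members tested in both, 32 had the same sign, and the correlation across genes was -0.26 (Pearson) and -0.22 (Spearman). Of the 13 mitochondrially encoded members as deposited, 4 had the same sign, with correlations of 0.71 (Pearson) and -0.18 (Spearman). The same values were not computed over all genes, so opposite signs are not shown to be particular to the members. Ndufaf4 and Ndufaf5 fell in 4T1 in vivo and rose in niche libraries, and Ndufb11 rose in 4T1 in vivo and fell in niche libraries. mt-Nd6, mt-Nd5, mt-Nd2, mt-Nd4 and mt-Co1 rose in 4T1 in vivo and fell in niche libraries. Genes are not independent replicates, and no p is given.

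**Figure D5:**
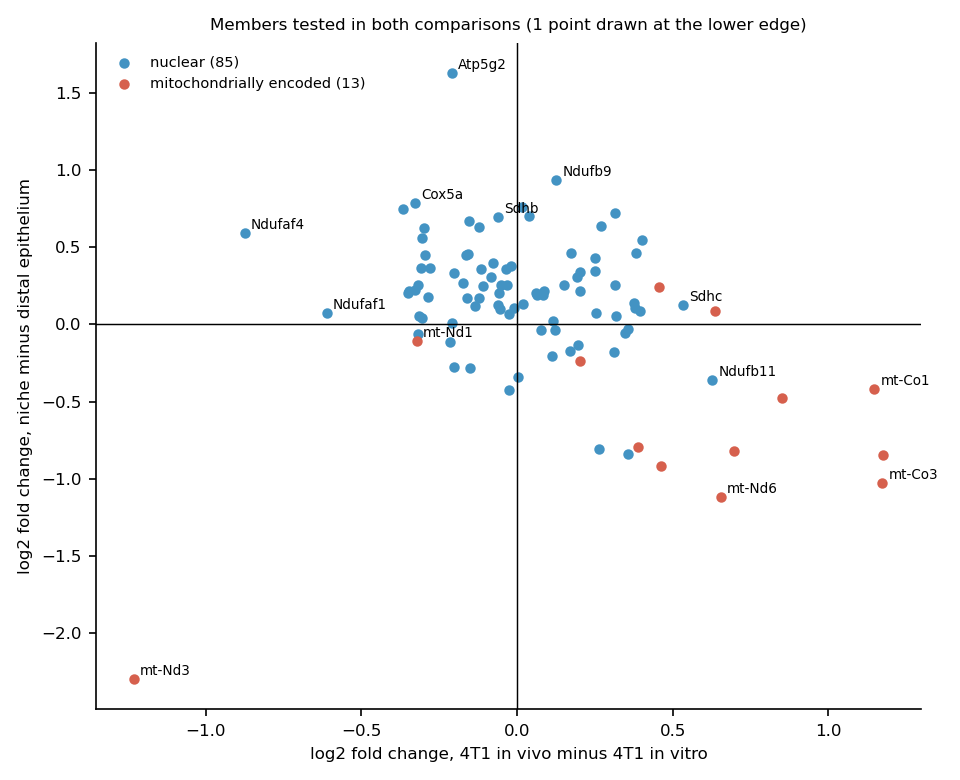
log2 fold change of each member in niche minus distal epithelium (vertical) against that in 4T1 in vivo minus 4T1 in vitro (horizontal), for the 85 nuclear (blue) and 13 mitochondrially encoded (red) members tested in both; mt-Nd3, at -8.45 as deposited, is drawn at the lower edge. Most red points lie at the lower right, higher in 4T1 in vivo and lower in niche libraries, and most blue points lie above the horizontal line.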

How the data were processed

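The authors deposited gene-level RSEM tables for 15 libraries, 3 in each of 5 groups taken from the labels. Per the file headers these hold expected counts (estimated read counts, not normalized), TPM and FPKM, and an effective length for each gene; the deposited FPKM were not used. GRCm38, RSEM and DESeq2 are named in the submitters' processing notes, without versions; strandedness was not found in the sources used here. Reads were 75 bases. The deposited gene IDs were matched to GENCODE M21 for symbols (54809 of 54838).

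The deposited expected counts were rounded and tested with edgeR 4.0.16 in R 4.3.3 (quasi-likelihood F-test, TMM scaling, filterByExpr, Benjamini-Hochberg over all genes tested, threshold 0.05). The 6 4T1 libraries, the 9 epithelial libraries or, across cell types, all 15 libraries were fitted together, by group only. CPM of members and of the lists of mitochondrial genes use TMM factors over all 15 libraries, so fitted log2 fold changes exceed those from CPM by 0.01 (4T1), 0.07 (niche minus distal) and 0.00 (shSox9 minus niche). CPM of Sox9, the cell markers, the 4T1 panel, the heart muscle genes and the limit for a count of 0 are without these factors. The factors of distal libraries were 0.776, 0.843 and 0.819. The deposited TPM were used for shares and levels and, in an alternative, as log2(TPM + 1) with limma 3.58.1. Shares were compared by two-sided exact permutation tests. Copies are pseudogenes that share at least 50% of their own or the member's 75-base windows.

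Totals ran from 15907316 to 30421705 expected counts, and the limit set by a count of 0 (3 counts) is 0.0986 to 0.189 CPM for counting error only. The fits were tested on simulated counts with known changes. No pair of libraries was a duplicate (chi-square per degree of freedom 7.66 to 39.4 within groups). Same-numbered shSox9 and niche libraries deviated together (correlations 0.20, 0.14 and 0.17, each best with its own number). The labels state no pairing, so the main fits were by group only and the replicate as a block was an alternative.

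Alternatives were DESeq2 1.42.0, its size factors, no filter on low counts, scaling over nuclear genes, an effective length offset and the replicate as a block. Others were other sets of libraries, each library left out, copies added and the estimated 4T1 share taken off, the last 2 chosen after seeing the data. The offset was each library's smoothed trend of log2 CPM with the gene's effective length averaged over libraries. The planned panel for that share held 1 gene and was widened to 18. Members and gene lists were chosen with earlier results of these data known. Named members are all mitochondrially encoded ones, up to 3 per complex and direction among those called with at least 5 CPM in the higher group, the highest and lowest per complex, and isoforms of a subunit; the members shown for single alternatives and the heart muscle genes were chosen after their values were seen. Niche labelled shSox9 against distal and 4T1 in vivo against niche were fitted but are not described.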

Additional observations from a re-analysis of the deposited data

Results flagged for a closer look

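Each result here was picked out because its change in 4T1 in vivo against 4T1 in vitro differed from its change in niche against distal epithelium, by a test of the difference of both log2 fold changes (edgeR's quasi-likelihood test over all 15 libraries, Benjamini-Hochberg adjustment). The difference is the 4T1 change minus the epithelial one. Of the 91 nuclear members tested it was above 0 and called for 10 and below 0 and called for 26, where 29.1% and 21.2% of all genes were called; of the 13 mitochondrially encoded members it was above 0 and called for 7. Among the mitochondrially encoded members mt-Nd6 differed by 1.84, rising in 4T1 in vivo and falling in niche libraries, and mt-Co3 by 2.28 as deposited, where its counts are split with a near-identical copy.

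Among nuclear members Ndufaf4 differed by -1.40, falling in 4T1 in vivo and rising in niche libraries, with both changes called in their own comparisons. Atp5g2 differed by -1.78, with most of its reads assigned to a copy. Cox7a1 differed by 3.11 at under 4 CPM in every library. Cox6a2 differed by 7.74, a fitted value that rests on 14 counts over the 3 libraries of 4T1 in vivo and 2 over those of 4T1 in vitro, beside 80 in niche and 1656 in distal libraries, and is no bound. The cause of these differences was not tested.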

How the results depend on the processing

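Of 91 nuclear members, niche minus distal gave 36 higher and 11 lower, and these counts stayed within 1.5 times in all alternatives except on log2(TPM + 1) (81 and 3), with the 4T1 share taken off (22 and 7) and without niche replicate 1 or distal replicate 3 (7 lower). Of all genes 52.2% were higher and 13.6% lower on log2(TPM + 1), against 28.5% and 25.8% in the main fit. Mitochondrially encoded members lower there numbered 5 with copies added, 1 on log2(TPM + 1), where 3 were higher, and 5 with the 4T1 share taken off. On log2(TPM + 1) the values turned positive for Ndufb11 (0.23), Ndufb3 (0.25), Ndufc2 (0.16), Ndufs7 (0.29), mt-Co1 (0.16), mt-Nd1 (0.48) and mt-Nd4 (0.11). The all-gene median was 0.48 on that scale, against 0.02 in the main fit, so a positive value there need not lie above the typical gene. Ndufb9 turned to -0.0064 with the 4T1 share taken off and mt-Atp6 to 0.15 with copies added; mt-Nd3 ran from -9.07 without distal replicate 3 to 0 without distal replicate 1, the one niche or distal library in which it had a count.

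In 4T1 cells, nuclear members higher and lower (9 and 11) were 16 and 7 on log2(TPM + 1) and 17 and 17 with the replicate block. Those lower were 17 without the filter, 26 with the effective length offset and 24 with block and offset. Of all genes 27.5% were higher and 16.7% lower on log2(TPM + 1), and 27.8% and 25.6% with the block. All genes lower were 14.2% without the filter, 27.5% with the offset and 27.4% with block and offset. Mitochondrially encoded members lower (1) were 0 on log2(TPM + 1) or with all 15 libraries fitted and 2 with copies added. For shSox9 minus niche, mitochondrially encoded members higher (4) were 7 by DESeq2, 9 without the filter, 7 with the replicate block and 9 with block and offset. All genes higher were 12.3%, 5.77%, 9.54% and 8.96% in the same order, against 9.68% in the main fit. Nuclear members lower (9) were 14 with the 4T1 share taken off. For 4T1 in vitro minus distal, nuclear members lower (16) were 9 with the offset, 7 on log2(TPM + 1) and 9 with block and offset. All genes lower were 38.6%, 37.2% and 38.4% in the same order, against 51.0% in the main fit. Mitochondrially encoded members higher (0) were 1 with the offset, without the filter, with only the 2 groups fitted and with block and offset. They were 2 on log2(TPM + 1), where Ndufv3 turned to 0.13 and the all-gene median was 0.02, against -0.56 in the main fit. For the difference between both changes, nuclear members higher (10) were 6 by DESeq2, 5 with its size factors and 4 with the offset. They were 5 on log2(TPM + 1), 6 without the filter and 4 with block and offset. All genes higher were 27.4%, 24.6%, 17.5%, 18.02%, 12.8% and 17.4% in the same order, against 29.1% in the main fit. Nuclear members lower (26) were 64 with the offset, 66 on log2(TPM + 1), 41 without the filter and 66 with block and offset. All genes lower were 37.9%, 38.6%, 14.7% and 38.01% in the same order, against 21.2% in the main fit. The all-gene median was -0.28 with the offset, on log2(TPM + 1) and with block and offset, against 0.30 in the main fit. Mitochondrially encoded members lower (0) were 1 with the offset, on log2(TPM + 1) and with block and offset. Correlations of same-numbered libraries ran from -0.0048 to 0.0999 in 4T1 cells and from -0.025 to 0.083 for niche and distal, below those of shSox9 and niche.

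With 4T1 in vitro as the second source, 2 mitochondrially encoded members lay above and 3 below both sources in niche libraries, against 0 and 7 with 4T1 in vivo. Ratios of shares moved with the pool. Without surfactant genes the nuclear ratio was 1.08 for niche over distal, 1.39 for 4T1 in vitro over distal and 0.999 for shSox9 over niche, and the mitochondrial one 0.811 and 0.590 for niche and 4T1 in vitro over distal, against 1.35 and 1.02 in all TPM. In percent of counts the mitochondrial ratios were 1.01 (niche) and 0.692 (4T1 in vitro), or 1.11 and 0.757 with copies added, and the nuclear ones 1.45 and 2.13, with or without copies.

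Leaving out 1 library at a time gave the following ranges. In 4T1 cells they were 2 (without 4T1 in vitro replicate 2) to 24 (without 4T1 in vitro replicate 3) nuclear members higher, 7 (without 4T1 in vivo replicate 1 or 4T1 in vitro replicate 2) to 15 lower, and 0 to 2 mitochondrially encoded members lower. In niche minus distal they were 25 to 34 nuclear members higher, 7 to 11 lower and 4 to 8 mitochondrially encoded ones lower, or 3 to 5 with copies. In shSox9 minus niche they were 1 to 3 nuclear members higher, 2 (without shSox9 replicate 2 or niche replicate 1) to 11 lower and 1 (without shSox9 replicate 3) to 8 (without shSox9 replicate 2) mitochondrially encoded ones higher, or 1 to 11 with copies. In 4T1 in vitro minus distal 0 to 1 mitochondrially encoded members were higher, and in the difference of both changes 5 to 11 nuclear members. The causes of these shifts were not tested. Depth limits members with few reads, such as Cox8b with 12 counts over the 3 niche libraries.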

Other observations

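Cox4i2, an isoform of complex IV subunit 4 known for its expression in lung, was a further member with a large spread. It had 12.1, 1.19 and 4.91 CPM in libraries labelled shSox9, 2.38, 2.61 and 3.72 CPM in niche libraries and 5.69, 5.46 and 13 CPM in distal libraries. Its highest value in libraries labelled shSox9 lay near the highest distal value and its lowest below all niche values, niche and distal values did not overlap, and it was not called in either comparison (log2 fold change 1.07 for shSox9 minus niche and -1.40 for niche minus distal, edgeR adjusted p = 0.27 and 0.083). Over 3 libraries it had 15 counts in 4T1 in vivo and 6 in 4T1 in vitro.

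Ucp2, an inner-membrane carrier that is also strongly expressed in immune cells and was picked after its values were seen, had 125 ± 17.7 CPM in libraries labelled shSox9 and 278 ± 38.0 CPM in niche libraries (SD, n = 3 each), a log2 fold change of -1.15 (SE 0.15, edgeR adjusted p = 0.00044). The macrophage list moved in the same direction, with 88 to 448 CPM in libraries labelled shSox9 and 1431 to 2589 CPM in niche libraries, and its part in this value was not tested.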
